A study of Homo sapiens with 13 samples.

Results

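The proteasome subunit genes were taken as every gene whose symbol is PSMA, PSMB, PSMC, PSMD, PSME, PSMF or PSMG followed by digits alone. By this rule 48 of 24875 gene symbols were members in the Silvestrol experiment, and 46 of 13121 in the INK128 experiment, whose table does not list PSMA8 or PSMB11. The symbols PSMC3IP, PSMD5-AS1 and PSMG3-AS1 share the start but were left out. The members were sorted into 8 genes of the alpha ring, 7 of the beta ring, 4 beta subunits of the immunoproteasome and thymoproteasome, 6 ATPases of the 19S base, 3 other subunits of the base, 8 subunits of the 19S lid, 3 chaperones of 19S assembly, 4 chaperones of 20S assembly, and 5 other caps with the inhibitor PI31.

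Ribosome footprints (RFs, the mRNA fragments that a ribosome shields from nuclease) were sequenced from MDA-MB-231 cells, an established line of triple-negative breast carcinoma, to ask which mRNAs depend on the helicase eIF4A. All cells were grown in serum-containing medium, with no genetic change. The groups were cells given 25 nM Silvestrol, an eIF4A inhibitor, for 1 h (passage 3) or 2 h (passages 3 and 4), cells given DMSO for the same times and passages, and untreated cells (passage 3). The mRNA of the cells treated for 2 h with DMSO or Silvestrol was sequenced at passage 3 only, and a separate experiment (passage 3) measured RFs and total RNA after 2 h of DMSO or of 200 nM INK128, an inhibitor of the mTOR kinase. The pairs at 2 h of Silvestrol RFs are therefore the only replicates, and they are separate passages of 1 line. One label gives the 2 h Silvestrol RF library of passage 3 as treated for 1 h and another calls the DMSO mRNA library untreated, against their other labels. The deposited column used for DMSO mRNA names no treatment and was assigned because the other mRNA column names Silvestrol, so every mRNA change and translational efficiency (TE) below rests on that assignment.

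In the Silvestrol experiment the counted reads ranged from 2652423 in the 2 h Silvestrol RF library of passage 4 to 50315607 in the DMSO mRNA library. The INK128 libraries have no read counts here. Of the markers that define MDA-MB-231 cells, VIM, CD44, ITGB1, ANXA1, CAV1 and FOSL1 all had RFs above 100 RPKM (reads scaled to the counted length in kilobases and to the library size) in the DMSO library of passage 3, whereas ESR1, PGR and CDH1 were listed at 0 there, ERBB3 stood at 0.334, EPCAM at 3.24 and GATA3 at 8.45 RPKM.

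The proteasome degrades proteins tagged with ubiquitin. Its 20S core is a barrel of outer alpha rings, which gate the entrance, and inner beta rings, of which PSMB5, PSMB6 and PSMB7 carry the proteolytic sites. In the immunoproteasome PSMB8, PSMB9 and PSMB10 replace these. The 19S cap binds and unfolds the substrate: a base of ATPases (PSMC genes) drives unfolding, and a lid holds PSMD14, the enzyme that cuts ubiquitin chains from the substrate. Other caps can take its place, PA28 alpha and beta (PSME1 and PSME2), PA28 gamma (PSME3, in the nucleus) and PA200 (PSME4). eIF4A unwinds structure in the 5′ untranslated region (UTR) so that the small ribosomal subunit can reach the start codon, and mTOR acts upstream of cap binding by eIF4E.

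The stretch of mRNA just ahead of the start codon is shown for the 7 members whose RFs changed at 2 h, in order from the largest fall to the largest rise, because the results below turn on these genes. Sequences are from the GENCODE transcripts on GRCh37, read 5′ to 3′ on the sense strand, with the start codon in capitals.
PSME3: gaggatcggacacggcccggcccggccATG
PSME4: gggggtggggggggtgtccctgggctcATG
PSMD14: taagagttgtagttactgaccagaaatATG
PSMB1: tgtcggatccgcaggcgcagccgtgcgATG
PSMD6: ctgtcagccgctgtccccttcgccgcgATG
PSME1: tgcggcgctaggccccccgtcccggtcATG
PSMB5: ctttctgcccacactagacATG
For PSMB5 these 19 bases are the whole annotated 5′ UTR. For PSME3, PSME4 and PSMD14 the 27 bases shown are the last of 235, 209 and 317. The 5′ UTRs of PSMB1, PSMD6 and PSME1 are 65, 75 and 69 bases long. The start codons lie at chr17:40985649-40985651 on the plus strand (PSME3), chr2:54197919-54197921 on the minus strand (PSME4), chr2:162175337-162175339 on the plus strand (PSMD14), chr6:170862328-170862330 on the minus strand (PSMB1), chr3:64009093-64009095 on the minus strand (PSMD6), chr14:24605472-24605474 on the plus strand (PSME1) and chr14:23504088-23504090 on the minus strand (PSMB5).

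After 2 h of Silvestrol most proteasome genes lay above the median gene in RFs. RFs fell on PSME3, PSME4 and PSMD14, and rose on PSMB1, PSMB5, PSMD6 and PSME1. In edgeR's quasi-likelihood test of read counts (2 libraries against 2, Benjamini-Hochberg adjusted p below 0.05), 43 members passed the filter on low counts, 3 (6.98%) were lower, close to the 5.98% of all 11194 genes tested, and 4 (9.3%) were higher, against 1.56% of all genes. The median log2 change of the 43 members was 0.31, where that of all genes tested was -0.02, and 33 of the 43 lay above the median of all genes. These counts were not scaled to the counted length of a gene, which differed between libraries. By RPKM the members' median log2 change at passage 3 was 0.21 (all genes, -0.17), and 32 of 43 lay above that of all genes. At passage 4 it was 0.04 (all genes, -0.15), and 28 of 43 lay above that of all genes. PSMA8, PSMB8, PSMB9, PSMB11 and PSMC1 did not pass the filter. Each library is scaled to its own total, so a change is relative to the other genes, and in bulk lysates fewer cells and less RNA per cell cannot be told apart. With passage entered as a blocking term, 6 members were lower, with PSMC3, PSMD1 and PSMD2 added (all genes, 26.7%), and 24 were higher (all genes, 23.9%). Without either Silvestrol library edgeR called no member and no gene at all, and 9 and 12 members had an unadjusted p below 0.05 (1599 of 11151 and 1925 of 11619 genes), where 23 had with every library (3311 of 11194 genes). Without the DMSO library of passage 3 there were 2 lower and 2 higher (all genes, 4.91% and 1.46%), and without that of passage 4 there were 3 lower and 1 higher (all genes, 5.61% and 0.839%). In these fits an arm of 1 library is assumed to vary like the other arm. DESeq2 called 3 members lower and 7 higher (all genes, 8.93% and 5.35%).

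PSME3, which caps the core in the nucleus and serves degradation that does not need ubiquitin, had the largest fall. Its RF density was 519 RPKM with DMSO and 184 with Silvestrol at passage 3, and 429 and 157 at passage 4. Both Silvestrol values lay below both DMSO values, a log2 change of -1.33 ± 0.19 (SE; edgeR adjusted p = 0.0302), or 0.397 of the DMSO level. Its mRNA was 96.5 and 81.4 RPKM.

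PSMD14, the deubiquitinase of the lid, went from 374 to 185 RPKM in RFs at passage 3 and from 355 to 174 at passage 4. The groups did not overlap, and the log2 change was -0.80 ± 0.12 (edgeR adjusted p = 0.0313). Its mRNA stood at 59.4 RPKM with DMSO and at 99.2 with Silvestrol, so RFs and mRNA moved apart.

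PSME4 encodes PA200, a large single-chain cap. Its RFs went from 36.5 to 17.6 RPKM and from 37.3 to 20.3, again without overlap, a log2 change of -0.84 ± 0.13 (edgeR adjusted p = 0.0316). As with PSMD14, its mRNA was higher with Silvestrol, 18.4 against 11.3 RPKM.

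PSMB5 carries the chymotrypsin-like site, the main target of bortezomib. Its RFs rose from 550 to 843 RPKM at passage 3 and from 481 to 726 at passage 4, a log2 change of 0.74 ± 0.13 (edgeR adjusted p = 0.0397), while its mRNA was 236 RPKM with DMSO and 146 with Silvestrol. PSME1, a subunit of the PA28 cap that is induced by interferon, rose from 608 to 925 RPKM and from 724 to 979, by 0.65 ± 0.12 (edgeR adjusted p = 0.0449). All 4 Silvestrol values of these genes lay above the DMSO values of the same gene.

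PSMD6, a scaffold subunit of the lid, rose from 277 to 385 RPKM and from 287 to 391, by 0.60 ± 0.11 on the log2 scale (edgeR adjusted p = 0.0463). PSMB1, a beta subunit without a proteolytic site, had the densest RFs of the core and rose from 1420 to 1976 RPKM and from 1620 to 2092, by 0.55 ± 0.11 (edgeR adjusted p = 0.0467). Neither gene's groups overlapped. The mRNA of PSMD6 was 62.2 and 95.9 RPKM, that of PSMB1 526 and 496, and that of PSME1 292 and 223. All 7 adjusted p-values lay between 0.0302 and 0.0467, and all 7 genes were called with the block as well.

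**Figure D1:**
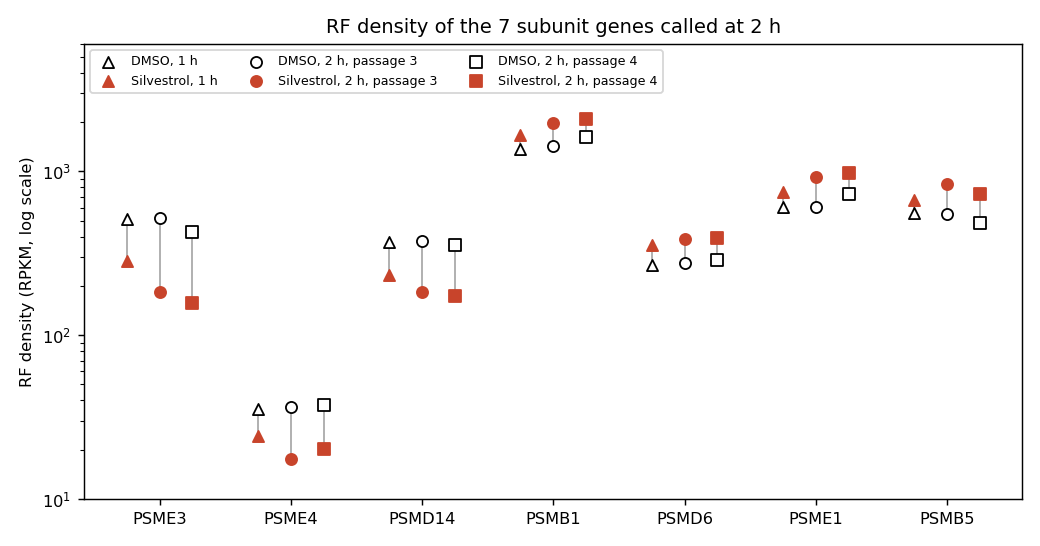
RF density (RPKM, log scale) of the 7 members called by edgeR at 2 h, with DMSO as open and Silvestrol as filled symbols; triangles are the 1 h pair, circles passage 3 and squares passage 4 at 2 h, and grey lines join a pair. For PSME3, PSME4 and PSMD14 every filled symbol lies below its open partner, and for PSMB1, PSMD6, PSME1 and PSMB5 every filled symbol lies above it.

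The mRNA values behind TE, the RF density divided by the mRNA density, are given by ring of the 20S core. In the alpha ring, 5 of 7 members with a value had more mRNA with Silvestrol than with DMSO, with a median log2 change of 0.26 and a range from -0.69 (PSMA6) to 0.79 (PSMA4). In the beta ring all 7 members had less mRNA, from -0.78 (PSMB3) to -0.09 (PSMB1), with a median of -0.41. The median of all genes was 0.05, and these changes rest on 1 mRNA library for each treatment, so they have no test, and the rings were not tested against each other. The median log2 RF change by edgeR was 0.37 in the alpha ring and 0.48 in the beta ring, and with the block 5 of 7 alpha and 4 of 7 beta genes were higher and none was lower, where 23.9% and 26.7% of all genes were.

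For TE, edgeR's interaction term called no member in either direction among 44 tested, while 15 members had an unadjusted p below 0.05, as did 2525 of 14028 genes. The 44 include PSMC1, which passed the filter on its mRNA alone and had 0 RF reads, so it has no TE. Over all genes tested it called 0.0214% lower and 0.0% higher. Over the 11194 genes that also passed the filter on RFs, a restriction added after the data were seen, it again called none of 43 members (all genes, 0.0268% lower). DESeq2 called 2 members lower and 4 higher (all genes, 3.86% and 2.76%). Once passage was blocked, the same test called 4 members lower (all genes, 17.7%) and 20 higher (all genes, 17.3%). Over the genes past the RF filter it called the same 4 and 20 members (all genes, 22.8% and 22.3%). The 4 were PSMA4, PSMD14, PSME3 and PSME4. The 20 included the 7 beta ring genes and PSMA6 of the alpha ring. In this test the mRNA still had 1 library for each treatment, so these calls carry the unreplicated mRNA differences given above. The median log2 TE change of the 43 members past the RF filter, without the block, was 0.39, where that of all such genes was -0.03. Without the DMSO library of passage 3, 2 members were lower and 2 higher (all genes, 5.94% and 4.05%), and without that of passage 4, 3 were lower and 6 higher (all genes, 7.07% and 6.01%), with none called once either Silvestrol library was left out.

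The study set its thresholds on a z-score of the TE change. In a z-score built here after it, of the log2 TE change at passage 3 over the 10526 genes that passed a filter of this work, no member lay below -1.5 (all genes, 6.29%) and 2 of 43 lay above 1.5 (all genes, 4.36%), PSMB5 at 1.61 and PSME2 at 1.90. PSMD14 and PSME4 came nearest to the lower threshold, both at -1.44. With the RFs of passage 4 over the same mRNA, PSMD14 passed the lower threshold at -1.54 (all genes, 6.74%), and 3 members passed the upper one (all genes, 4.7%), PSMB5 at 1.64, PSMD8 at 1.63 and PSMG3 at 1.59. PSME2 stood at 1.24 there. The median log2 TE change of the members was 0.16 at passage 3 and 0.06 at passage 4, where those of all genes were -0.28 and -0.24.

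**Figure D2:**
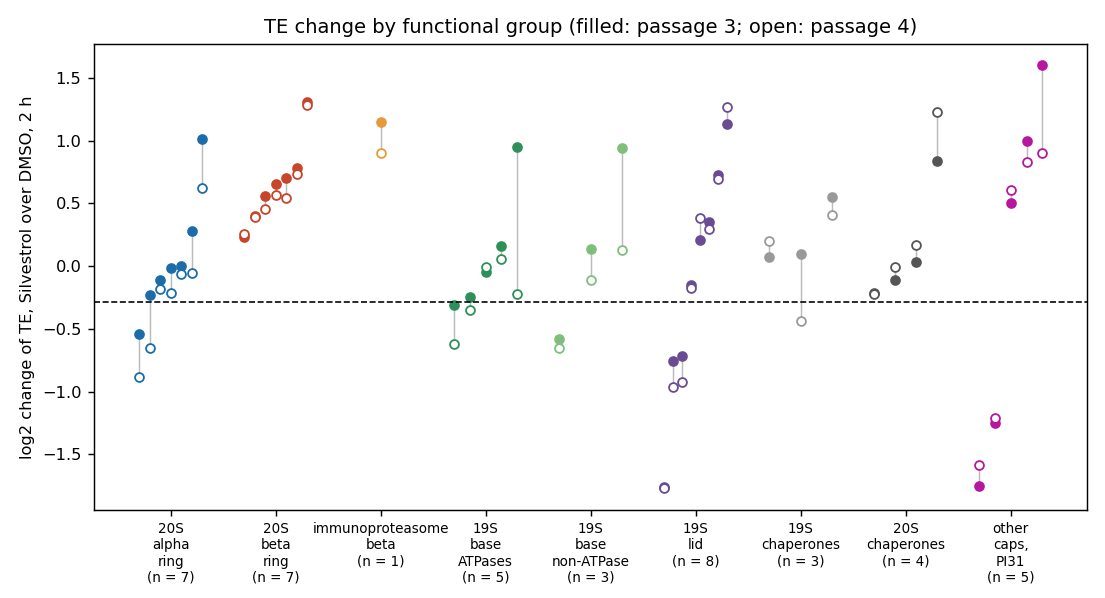
Log2 change of TE with Silvestrol at 2 h for the 43 members with a value, by functional group; filled points use the RFs of passage 3, open points those of passage 4, both over the same pair of mRNA libraries, and the dashed line is the median of all genes at passage 3 (-0.28). All 7 beta ring genes lie above 0 in both passages, and PSMD14, PSME3 and PSME4 lie below -1.2.

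PSMA4 had the lowest TE change of the alpha ring. Its RFs were 489 and 580 RPKM at passage 3 and 624 and 583 at passage 4 (DMSO, then Silvestrol), overlapping, with mRNA of 91.5 and 158 RPKM, and the TE changes were -0.55 and -0.89. PSMA6, the highest, had RFs of 67.7 and 84.8 RPKM and of 57.8 and 55.2, which overlapped too, and its TE change was 1.01 and 0.62, over mRNA of 43.9 and 27.3 RPKM. At passage 3 PSMA6 was counted over only 18.4% and 16.5% of its expected length, and 4 pseudogenes of it are annotated. In the beta ring the lowest was PSMB2, with RFs of 725 and 677 RPKM, and 620 and 589, mRNA of 146 and 116 RPKM, and TE changes of 0.23 and 0.26. The highest was PSMB5, at 1.31 and 1.29. The other catalytic subunits also had TE changes above the median of all genes, 0.78 for PSMB7 and 0.40 for PSMB6 at passage 3. PSMB7, with the trypsin-like site, had RFs of 841 and 1087 RPKM, and 826 and 1030, and PSMB6, with the caspase-like site, 720 and 688 RPKM, and 675 and 643. Their mRNA was 429 and 323 RPKM (PSMB7) and 374 and 271 RPKM (PSMB6). PSMB7 was called higher with the block (log2 change 0.48 ± 0.08) and at an adjusted p of 0.0621 without it in edgeR, whereas PSMB6 was not called in either fit.

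In the 19S base the members spread around 0. Of the 5 ATPases tested, edgeR called none without the block, and with it PSMC3 was lower and PSMC5 and PSMC6 higher (all genes, 26.7% and 23.9%). PSMC3 went from 313 to 197 RPKM and from 263 to 154, without overlap, but its edgeR log2 change was only -0.37 ± 0.12 (adjusted p = 0.123). The number of positions at which the authors counted reads also differed between these libraries: for PSMC3 it came to 46.1% and 51.6% of the expected length in the passage 3 libraries and to 59.6% and 72.2% in those of passage 4. With an offset for the counted length the edgeR log2 change was -0.56 ± 0.21 (adjusted p = 0.146). Taken over the median of all genes, its RPKM changes were -0.49 and -0.62, on either side of that value. PSMC2 had the lowest TE change of the ATPases (-0.31 and -0.62) and PSMC6 the highest at passage 3 (0.95, then -0.22 at passage 4). Their RFs were 179 and 154, and 195 and 135 RPKM for PSMC2, and 9.91 and 16.9, and 19.99 and 15.2 RPKM for PSMC6. Their mRNA was 68.5 and 72.8 RPKM for PSMC2 and 7.17 and 6.36 for PSMC6. The RF density of PSMC6 thus rose at passage 3 and fell at passage 4, where 46.9% and 62.5% of its expected length was counted. Its call with the block rests on 132 and 111 reads at passage 3 and on 91 and 39 at passage 4.

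Of the other base subunits, PSMD1, a large scaffold, had RFs of 145 and 98.0 RPKM, and 155 and 99.6, with a log2 change of -0.47 ± 0.12 (edgeR adjusted p = 0.072; lower with the block). PSMD4, a ubiquitin receptor, had the highest TE change at passage 3 (0.94) and 0.13 at passage 4. Its RFs were 26.6 and 39.0 RPKM, and 34.0 and 28.4, which overlapped. With the block edgeR called PSMD4 higher in RFs (log2 change 0.60 ± 0.20, adjusted p = 0.00798; all genes, 23.9%). It was called higher in TE as well (1.11 ± 0.34, adjusted p = 0.00513; all genes, 17.3%). At passage 4, where its RPKM fell, it was counted over 38.7% and 55.8% of its expected length. The mRNA of PSMD1 was 49.1 and 49.7 RPKM and that of PSMD4 45.3 and 34.5.

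In the lid, PSMD14 had TE changes of -1.76 and -1.77, the lowest of any member in both passages. PSMD8 had the highest of the lid, 1.14 and 1.27, with RFs of 479 and 687 RPKM, and 345 and 542, and mRNA of 267 and 174 RPKM. Its log2 RF change of 0.72 ± 0.17 had an edgeR adjusted p of 0.0645, and it was called higher with the block. The 8 lid genes had a median log2 RF change of 0.16 by edgeR. With the block 4 of them were higher, PSMD6, PSMD8, PSMD11 and PSMD13 (all genes, 23.9%), and 1 was lower (all genes, 26.7%).

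Assembly chaperones, which guide subunits into the rings and the base and then leave, had none of 7 members lower in RFs (all genes, 5.98%, and 26.7% with the block) or in TE (all genes, 0.0214%, and 17.7% with the block). All 7 had a log2 RF change above 0 by edgeR, from 0.13 (PSMD10) to 0.72 (PSMG3), and 4 were higher with the block, PSMD5, PSMG1, PSMG2 and PSMG3 (all genes, 23.9%). By RPKM 1 of the 7 lay below 0 in each pair at 2 h, PSMG4 at passage 3 (-0.04) and PSMD10 at passage 4 (-0.38). At 1 h 3 of the 7 lay below 0. At passage 4 PSMD10 was counted over 58.8% and 70.8% of its expected length. PSMG3 had the highest TE change among the 20S chaperones, 0.84 and 1.23, with RFs of 31.2 and 40.6 RPKM, and 26.8 and 45.6. PSMG2 had the lowest, -0.22 in both passages, with RFs of 211 and 267, and 249 and 313 RPKM. The mRNA of PSMG3 was 57.2 and 41.5 RPKM and that of PSMG2 57.5 and 84.5. Among the 19S chaperones PSMD9 (0.07 and 0.20) and PSMD5 (0.55 and 0.40) marked the range at passage 3. RFs of PSMD9 were 222 and 223, and 167 and 184 RPKM, and those of PSMD5 were 103 and 132, and 117 and 136 RPKM. Their mRNA was 46.2 and 44.2 RPKM (PSMD9) and 25.0 and 21.9 (PSMD5).

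Among the caps other than 19S, PSME1 and PSME2 stood apart from PSME3 and PSME4. PSME1 and PSME2, which form one cap together, had TE changes of 1.00 and 0.83, and of 1.60 and 0.90, whereas PSME3 had -1.25 and -1.21 and PSME4 -1.76 and -1.58. The values of PSME2 rest on few positions: its RFs were 8.95 and 14.5 RPKM, and 19 and 18.9, counted over 28.5% to 52.4% of the expected length, and 6 pseudogenes of it are annotated. Its mRNA was 35.9 and 19.1 RPKM, its RFs at 1 h were 10.4 and 11.7 RPKM, and in the INK128 experiment they were 215 and 210 FPKM. PSME2 was called higher by edgeR only with the block, in RFs (log2 change 0.77 ± 0.31; all genes, 23.9%) and in TE (1.75 ± 0.45; all genes, 17.3%). PSMF1, which encodes PI31, went from 220 to 236 and from 201 to 231 RPKM, and was higher only with the block (log2 change 0.28 ± 0.10).

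**Figure D3:**
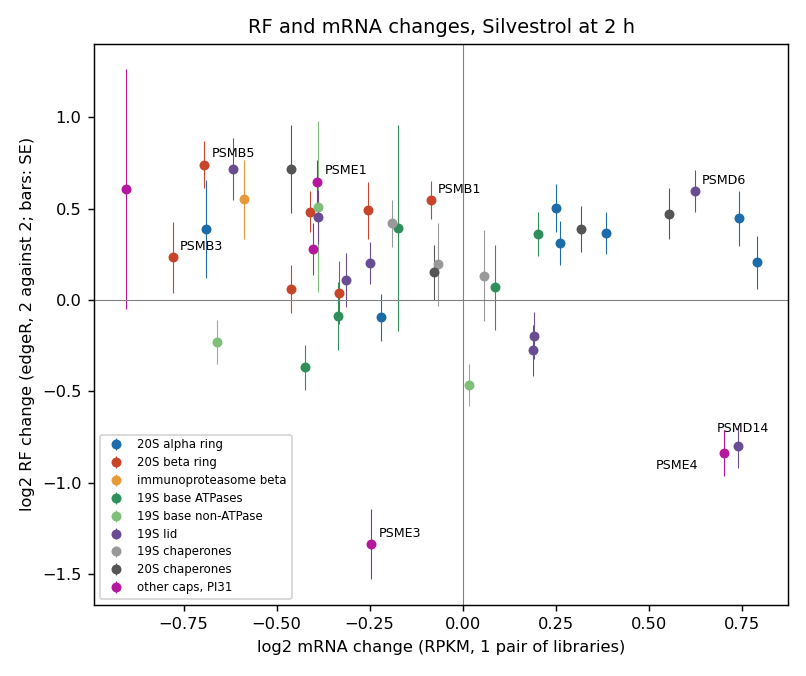
Log2 RF change by edgeR (2 libraries against 2, bars are SE) against log2 mRNA change (1 pair of libraries) for the members with both values, Silvestrol against DMSO at 2 h; colours are functional groups. PSMD14 and PSME4 stand at the lower right with mRNA changes of 0.74 and 0.70, and the beta ring genes stand at the upper left.

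Of the immunoproteasome subunits, PSMB10 was measured in every library. Its RFs went from 94.1 to 139 RPKM and from 142 to 177, which just overlapped between passages, with a log2 change of 0.55 ± 0.22 (edgeR adjusted p = 0.168; higher with the block), and its mRNA was 17.5 and 11.7 RPKM. PSMB8 and PSMB9 had 0 RF reads in all 7 libraries of the Silvestrol experiment. A count of 0 in the deepest of the 2 h libraries allows up to 3 reads, for counting error only. In the INK128 experiment the same line had 81.1 FPKM (fragments scaled likewise) of PSMB8 RFs and 54.3 of PSMB9 with DMSO, so a value of 0 here cannot be read as no expression. Both genes lie in the major histocompatibility complex (PSMB8 at chr6:32808494-32811824, PSMB9 at chr6:32821969-32827628, GRCh37). Of 54 genes with at least 10 FPKM of RFs there, between 29 and 33 Mb of chromosome 6, 43 (79.6%) had 0 RF reads in all 7 libraries, against 287 of 4706 genes elsewhere (6.1%). Positions with reads that aligned to more than 1 place were excluded by the authors. PSMC1, with 13 annotated pseudogenes, also had 0 RF reads there and 131 FPKM in the INK128 experiment. PSMA8 and PSMB11, the testis and thymus members, had 0 RF reads in the 2 h libraries and no entry in the INK128 table.

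The 1 h pair of RF libraries has no replicate. PSME3 stood at 510 RPKM with DMSO and 285 with Silvestrol, PSMD14 at 371 and 234, and PSME4 at 35.5 and 24.1. All 3 thus had fewer RFs with Silvestrol by 1 h, and both of their Silvestrol values at 2 h were lower than that at 1 h. PSMB5 was at 555 and 670 RPKM, PSMB1 at 1372 and 1675, PSMD6 at 269 and 354 and PSME1 at 608 and 744. The median log2 change of 43 members was 0.08, where that of all genes was -0.19. Relative to the median of all genes, 27 members were above it and 9 below it in all 3 pairs of libraries. The 9 were PSMA7, PSMC3, PSMD1, PSMD2, PSMD7, PSMD12, PSMD14, PSME3 and PSME4. The share of all genes that kept to one side in all 3 pairs is not given here, so these counts only describe the members.

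With INK128 the RFs of the proteasome genes changed little, and no member passed the TE threshold. Among 46 members none had a TE z-score below -1.5 (all 7102 genes, 5.58%) and none lay above 1.5 (all genes, 1.75%). Their z-scores ran from -0.99 (PSMG3) to 1.12 (PSME4) with a median of 0.15, where that of all genes was 0.13. RFs changed by a median of -0.02 on the log2 scale, within a range from -0.23 (PSMG4) to 0.15 (PSMG2), against 0.02 for all genes. The cytosolic ribosomal protein genes had a median z-score of -2.37 in the same libraries (79 of 81 genes with a value) and of 1.61 with Silvestrol at passage 3 (51 genes). The Silvestrol value differed between passages, with a median log2 TE change of 1.31 at passage 3 and 0.54 at passage 4 (54 genes) and a median log2 RF change of 0.75 and -0.27. The CCT chaperonin genes, which encode another ring complex, had median z-scores of 0.14 with INK128 and 0.43 with Silvestrol. Total RNA values were lower with INK128 in the members as in all genes, with a median log2 difference of -1.20 for the members and -1.17 for all genes. The median log2 TE change of all genes was accordingly 1.18. FPKM values are scaled within a library, so this shift of the median gene cannot be read as a loss of RNA. Its cause was not tested. The gap between the members and all genes depended on the filter: in TE it was 0.010 on the log2 scale as given, 0.214 with a pseudocount of 0.5 and 0.344 with a minimum of 5 FPKM, and in total RNA it was -0.034, -0.221 and -0.323. There is 1 library for each arm, so none of these values has a replicate check.

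The members called with Silvestrol had RFs that differed little with INK128. PSME3 stood at 37.8 FPKM with DMSO and 35.0 with INK128, PSMD14 at 84.6 and 82.0, and PSME4 at 11.7 and 12.5. PSMB5 stood at 148 and 144 FPKM, PSMB1 at 670 and 667, PSMD6 at 97.5 and 97.0 and PSME1 at 290 and 286. The immunoproteasome genes were at 81.1 and 81.0 FPKM (PSMB8), 54.3 and 59.2 (PSMB9) and 63.2 and 66.4 (PSMB10), and the catalytic PSMB6 and PSMB7 at 296 and 307 and at 231 and 205.

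**Figure D4:**
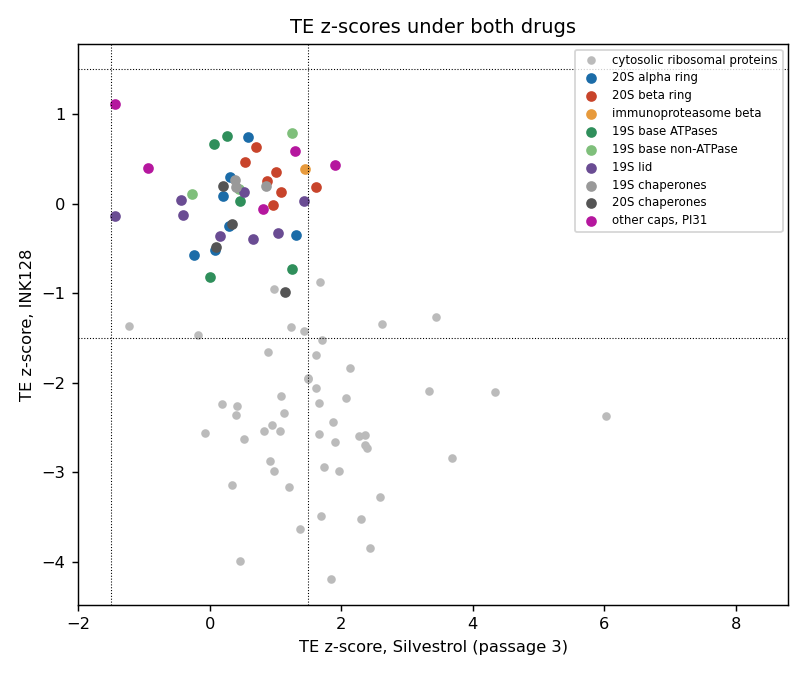
TE z-score with INK128 against TE z-score with Silvestrol (passage 3) for the members with both values, coloured by functional group, and for cytosolic ribosomal protein genes in grey; dotted lines mark -1.5 and 1.5. The members lie between -0.99 and 1.12 on the INK128 axis, above most ribosomal protein genes, and PSMB5 and PSME2 pass 1.5 on the Silvestrol axis.

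In control cells most proteasome genes had more RFs for their mRNA than the median gene. The median TE of the 43 members, on the log2 scale, was 1.44 where that of all genes was 0.88, and 34 members lay above it. In the INK128 experiment, with its own units, the members' median was 4.82 and that of all genes 3.88, and 40 of 46 lay above it. PSMA2 (7.19), PSMD12 (6.94) and PSMD14 (6.30) had the highest RF to mRNA ratios in the Silvestrol experiment, and PSME2 (0.25), PSMG3 (0.55) and PSMD4 (0.59) the lowest. In the DMSO library of passage 3 PSMA2 was counted over 35.5% of its expected length, PSMD12 over 38.2%, PSME2 over 28.5% and PSMD4 over 21.8%, and 3 pseudogenes of PSMA2 are annotated.

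How evenly RFs per length lay over the core depended on which genes were counted. Across all 14 standard core genes RF densities were 21.0-fold apart at passage 3 and 28.0-fold at passage 4 (SD 1.05 and 1.09 on the log2 scale), and mRNA 12.0-fold (SD 1.18), with PSMA6 lowest in each. Across the 11 standard core genes counted over at least 50% of their expected length in the DMSO library of passage 3 (a limit chosen after the values were seen), RF densities ran from 489 (PSMA4) to 1420 RPKM (PSMB1), a 2.9-fold range with an SD of 0.49 on the log2 scale. Their mRNA densities ran from 91.5 to 526 RPKM, 5.75-fold, with an SD of 0.92. At passage 4 the RF range was 3.36-fold. In the 19S cap 9 genes met the same limit, with RFs 3.31-fold apart (SD 0.49) and mRNA 5.44-fold apart (SD 0.83). Over all 17 cap genes, with PSMC1 left out of the RFs because it stood at 0, the SD was 1.502 in RFs at passage 3, 1.21 at passage 4 and 1.57 in mRNA. In the INK128 experiment all 14 core genes had SDs of 1.07 in RFs and 1.18 in total RNA, a small gap, and the 17 cap genes had SDs of 0.60 and 0.93.

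Of the genes that serve the proteasome, NFE2L1 and UBQLN2 fell. NFE2L1 encodes NRF1, the transcription factor that raises proteasome gene expression when the proteasome is short. Its RFs fell from 21.0 to 4.81 RPKM at passage 3 and from 26.8 to 4.56 at passage 4, a log2 change of -2.20 ± 0.20 with no overlap (edgeR adjusted p = 0.0218), while its mRNA was 65.4 and 62.7 RPKM. Its TE z-score was -1.75. Of the 4 regulators on the list (NFE2L1, DDI2, NGLY1, VCP) it alone was called in RFs without the block (all genes, 5.98% lower and 1.56% higher). With it, NGLY1 was called higher too (log2 change 0.45 ± 0.13, adjusted p = 0.00106; all genes, 23.9%), and VCP was called higher in TE (0.58 ± 0.18, adjusted p = 0.00612; all genes, 17.3%). UBQLN2, which carries ubiquitinated proteins to the proteasome, was the only gene called without the block of the 8 tested from the list of ubiquitin and shuttle genes (all genes, 5.98% lower and 1.56% higher). With it, calls on this list included UBA1 and UBQLN1 (lower) and UBA6 (higher). UBQLN2 fell from 94.1 to 33.8 RPKM and from 85.4 to 30.6, a log2 change of -1.31 ± 0.15 (edgeR adjusted p = 0.0223). None of the 9 proteasome partners was called by edgeR without the block. With it, 3 of the 9 were lower (UCHL5, TXNL1, AKIRIN2) and 2 higher (ADRM1, USP14), near the 26.7% and 23.9% of all genes. UCHL5 had a TE z-score of 2.85, over mRNA of 16.1 and 1.87 RPKM, but its RFs were 120 and 81.9 RPKM at passage 3 and 0.276 and 0.653 at passage 4. The values of passage 4 are 1 read in each library, so its call as lower rests on passage 3. With INK128 no gene of these lists passed 1.5 in either direction.

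The members as a set have short 5′ UTRs, and those that lost RFs have longer ones. All 48 members matched a GENCODE transcript, with a median annotated 5′ UTR of 68 bases, where the 9058 matched genes with a TE value had 134 bases. The 3 members with fewer RFs have 209 to 317 bases (median 235), the 4 with more have 19 to 75 (median 67), and the 36 not called have a median of 68. Over all genes, those called lower have a median of 340.5 bases and those called higher 46 bases. With the passage as a block, the 6 lower members have a median of 184.5 bases and the 24 higher ones 65.5. Predicted folding energy, by RNAfold for the whole 5′ UTR, was -108.6 kcal/mol for PSME3, -93.6 for PSME4 and -99.8 for PSMD14, and -20.2 for PSMB1, -13.8 for PSMD6, -18.2 for PSME1 and 0.0 for PSMB5. Longer sequences give lower energies: per 100 bases it was -46.2 for PSME3, -44.8 for PSME4, -31.5 for PSMD14, and -31.1 for PSMB1, -18.4 for PSMD6, -26.4 for PSME1 and 0.0 for PSMB5.

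Across 43 members Spearman's rho between 5′ UTR length and the edgeR log2 RF change was -0.39, and across all genes with both values it was -0.58. Genes share libraries and are not replicates, so no p is given. For the TE change with INK128 the same rho was -0.09 over the members and 0.13 over all genes. Exceptions stand on both sides. PSMG3 has the longest annotated 5′ UTR of the members, 693 bases, and its RFs were not lower. PSMD2 has 26 bases and was lower with the block. PSMF1 (172 bases) and PSMD3 (164 bases) were not lower in either fit. The triplet CGG repeated 4 times without a gap was searched on the sense strand of 16701 annotated 5′ UTRs. It was found in 3.69% of them and in none of the 48 members.

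**Figure D5:**
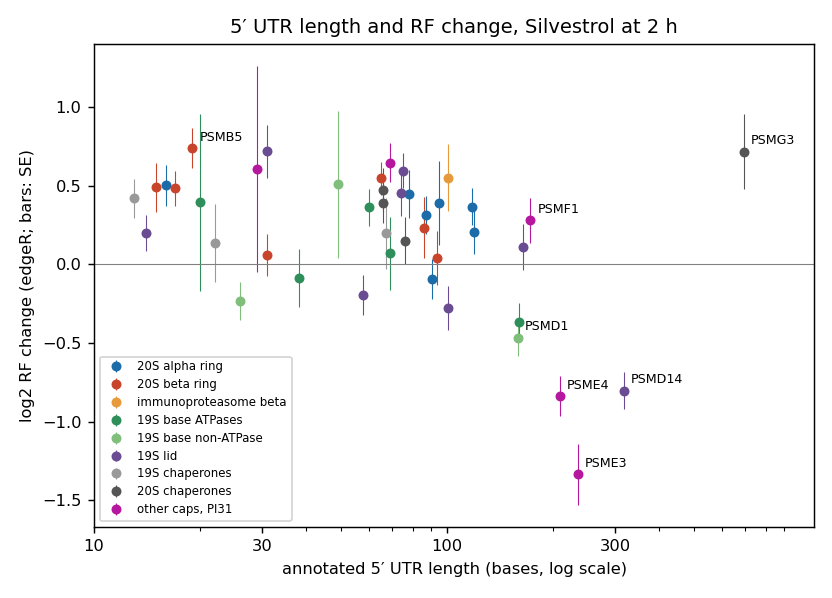
Log2 RF change by edgeR with Silvestrol at 2 h (bars are SE) against annotated 5′ UTR length (bases, log scale) for 43 members, coloured by functional group. PSME3, PSME4 and PSMD14, with 235, 209 and 317 bases, lie lowest, and PSMG3, with 693 bases, lies at 0.72.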

How the data were processed

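Sequenced libraries were from RFs, mRNA or total RNA. The authors trimmed the Silvestrol reads, set aside rRNA, mapped the rest with Bowtie against hg19 and canonical KnownGene transcripts and deposited, for each transcript, read counts and RPKM values. They left out ambiguous positions (multiply aligned reads, or several transcripts), so the counted length of a gene can differ between libraries. FPKM values were deposited for INK128, and the program behind them is not given in the sources used here. The submitters' processing notes name CASAVA 1.8.1, Bowtie2 and hg19.

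Duplicate lines were dropped (38897 lines, 25758 distinct) and, of several entries of 1 symbol (546 symbols of the Silvestrol experiment), that with the highest mean RF RPKM or FPKM was kept. The 25 blank counts were set to 0. Counts were tested with edgeR 4.0.16 (TMM, filterByExpr, glmQLFTest) in R 4.3.3, on 2 DMSO and 2 Silvestrol libraries, and TE by the interaction with 1 mRNA library per arm. DESeq2 1.42.0 was an alternative. The z-score used RPKM or FPKM above 0 with a mean of at least 1 in RFs and 0.3 in mRNA or total RNA, and no pseudocount. RPKM and FPKM changes are otherwise descriptions. The expected length behind a counted share is the coding length in GENCODE 44 (GRCh37) scaled by the ninetieth percentile of the library. Passage numbers in the labels pair DMSO and Silvestrol: the difference between passages correlated between the arms at r = 0.773 over 11194 genes. The count tests were tested on simulated data. Alternatives covered the tool, filter, scaling, pseudocount, block and left-out libraries.

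RFs at 2 h and mRNA are printed for members past 1.5 in either z-score, the lowest and highest TE change in each functional group, PSMB5 to PSMB10 and members called by edgeR, with 1 h or INK128 values for some of them; the rule as first written named every library. Members, groups and lists were chosen with earlier results of these data known. With 2 passages of 1 cell line, p-values measure the spread between cultures of that line. Bulk RFs and mRNA give no level per cell.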

Additional observations from a re-analysis of the deposited data

How the results depend on the processing

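Among the libraries with read counts, depth limits those of passage 4 most (2652423 counted reads with Silvestrol), and mRNA, the 1 h pair and the INK128 experiment have no replicate. All sign and size statements about TE rest on 1 pair of mRNA libraries. Among the 7 members called by edgeR, 41 of the alternative fits kept the call and none reversed. Fits without 1 library assume that the lone library varies like the other groups. The other 22 lost the call, 14 of them without 1 Silvestrol library, where edgeR called no gene at all, and in these 22 the log2 change was 0.862 to 1.15 times that reported.

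The passage as a block raised the counts of called members from 3 to 6 (lower) and from 4 to 24 (higher) in RFs, and from 0 to 4 and 0 to 20 in TE. Over all genes it called 2986 lower and 2673 higher in RFs, where the unpaired fit called 669 and 175, and 2482 and 2427 in TE, where the unpaired fit called 3 and 0. The block with an offset for counted length, added after the data were seen, gave 8 lower and 21 higher in RFs and 6 and 18 in TE. The TE test over genes past the RF filter, added likewise, gave 0 and 0, and 4 and 20 with the block. DESeq2 gave 7 members higher in RFs, and 2 lower and 4 higher in TE. Without 1 library the counts ranged from 0 to 3 lower and 0 to 2 higher in RFs, and from 0 to 3 and 0 to 6 in TE, and both RF counts were 0 without either Silvestrol library. Over all genes, DESeq2 called 1000 lower and 599 higher in RFs and 541 and 387 in TE, and the test of every gene with a count above 0 called 994 and 294 in RFs and 186 and 22 in TE. With an offset for counted length 0 genes were called in TE by edgeR, with 2535 at an unadjusted p below 0.05. Without the DMSO library of passage 4 edgeR called 97 genes higher in RFs, and 1015 lower and 863 higher in TE, and without that of passage 3 it called 802 and 547 in TE. Without either Silvestrol library it called 0 genes in RFs and in TE, with 1599 and 1925 genes at an unadjusted p below 0.05 in RFs and 1434 and 1655 in TE.

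The number of members with a Silvestrol z-score below -1.5, 0 as reported, was 2 with a pseudocount of 0.5, with a minimum of 5 or with median and MAD, 1 with mean RPKM of both passages and 1 without replicate 1. The number above 1.5, 2 as reported, was 3 without replicate 1, with mean RPKM of both passages or with median and MAD, 1 with RPKM above 0 as the only filter and 0 at a threshold of 2. With INK128 the median and MAD gave 2 below and 1 above, and a pseudocount of 0.5 gave 1 above. The members' median TE change over all genes, 0.440 with Silvestrol, was 0.298 without replicate 1. With INK128 it was 0.010 as reported, 0.214 with a pseudocount of 0.5 and 0.344 with a minimum of 5. The total RNA difference, -0.034, was -0.221 and -0.323 under the same changes. The members' control TE over all genes, 0.565, was 0.731 with the RFs of passage 4. The causes were not tested. The remaining medians, at 1 h, of mRNA and of INK128 RFs, moved by less than 0.135 under every alternative run. That value is the SD between passages of the members' median RF change at 2 h. The remaining medians have no replicate, so it does not measure their own spread.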

Other observations

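Untreated cells had nearly the same RF density on proteasome genes as cells given DMSO. Over the 43 members with a value the median log2 difference between the untreated library and the 2 h DMSO library of passage 3 was 0.02, and every member lay within 0.5, from -0.38 (PSMG4) to 0.23 (PSMC2). The DMSO libraries of the separate passages were further apart: the median was -0.08, and 40 of 43 members lay within 0.5, with PSMD8 lowest at -0.47 and PSME2 highest at 1.09.

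An ATG upstream of the annotated start codon was found in 42.5% of 16701 annotated 5′ UTRs and in 4 of the 48 members, PSMC5, PSMC6, PSMD14 and PSMG3. In RFs with Silvestrol, edgeR called PSMD14 lower (all genes, 5.98%) and none of the others. With the passage as a block PSMC5, PSMC6 and PSMG3 were called higher (all genes, 23.9%). The RPKM of PSMC6 rose at passage 3 but fell at passage 4, from 19.99 to 15.2.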
